A study of Homo sapiens with 6 samples.

Results

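The genes described here are those of the cell's extracellular protease machinery that were named for study: the plasminogen activators PLAU and PLAT, the urokinase receptor PLAUR, the serpin SERPINE2, the membrane metalloproteinases MMP14, MMP15 and ADAM17, and the metalloproteinase inhibitors TIMP1, TIMP2 and TIMP3. They were taken by gene symbol from the deposited table of FPKM (fragments per kilobase of gene, scaled to library size), and all 10 were found among its 58302 rows. The cells are MHCC97H, a human hepatocellular carcinoma line, sequenced as total RNA. The DDX17_KO line carries a CRISPR/Cas9 knockout of DDX17, which encodes an RNA helicase, and the control line was made with a non-target guide. Each group held 3 libraries. No label says whether a line is 1 clone or whether libraries came from separate cultures, so p-values measure only the spread between these libraries, which may be technical.

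Urokinase (PLAU) and tissue-type plasminogen activator (PLAT) cut plasminogen into plasmin, a broad protease that digests fibrin and matrix proteins and can activate other proteases. PLAUR is a lipid-anchored receptor that holds urokinase at the cell surface, while serpins such as SERPINE2 trap the activators in inactive complexes. MMP14 and MMP15 are metalloproteinases anchored in the cell membrane that cut matrix proteins, ADAM17 sheds cytokines and growth factors from the surface, and the TIMPs block metalloproteinases by binding their active site. In liver cancer the system is studied for its part in invasion and metastasis.

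DDX17 RNA averaged 16.4 ± 7.76 FPKM in DDX17_KO and 43.7 ± 2.11 FPKM in control (SD, n = 3 each), with every DDX17_KO library below every control. Its log2 fold change on log2(FPKM + 1) was -1.48 (limma adjusted p = 0.282). Estimated depth ran from 5350000 to 10630000 fragments in DDX17_KO and from 12340000 to 14550000 in control. DDX17_KO replicate 2 was the shallowest library and the lowest in DDX17, at 7.64 FPKM, against 22.4 and 19.1 FPKM in DDX17_KO replicates 1 and 3. The libraries numbered 2 stood apart from the others of their group in genes of high GC content, with Spearman's rho between deviation and GC content across genes of 0.53 in DDX17_KO replicate 2 and 0.58 in control replicate 2, against values from -0.53 to -0.32 in the other 4 libraries. Of 5 epithelial markers the keratin genes KRT8 and KRT18 were abundant and KRT19, EPCAM and CDH1 were near 0, while 0 of 9 hepatocyte markers averaged 0.5 FPKM or more, and these summed to between 0.0126 and 0.0406 FPKM in DDX17_KO and between 0.648 and 0.825 FPKM in control, with ALB at 0 in DDX17_KO. Markers of other cell types differed with the groups as well. The 6 red cell markers, of which HBB, HBA1 and HBA2 reached 0.5 FPKM, summed to between 0 and 0.652 FPKM in DDX17_KO and between 54.0 and 69.6 FPKM in control. The 6 fibroblast markers summed to between 47.5 and 88.8 FPKM in DDX17_KO and between 38.2 and 46.2 FPKM in control, with COL1A1, COL3A1, LUM and PDGFRB above 0.5 FPKM and COL1A2 and DCN near 0. COL3A1 and LUM made up most of the DDX17_KO sums, while COL1A1 and PDGFRB were lower in every DDX17_KO library than in each control. Of 5 leukocyte markers CD68 alone reached 0.5 FPKM, the list summing to between 2.07 and 3.30 FPKM in DDX17_KO and between 1.27 and 1.68 FPKM in control, with PTPRC and CD3E at or near 0. Of 4 endothelial markers none did. The part of these markers in the results below was not tested. Because the RNA came from bulk cultures, fewer cells of a type and less RNA per cell cannot be told apart.

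The sequences before the starts of PLAUR, MMP14, MMP15 and TIMP1 are shown because all their DDX17_KO libraries lay below all controls and they have a single entry in the RefSeq promoter table (GRCh38.p14), which holds 8 of the 10 genes. Each run is the 250 bases before the start that table gives, 5′ to 3′ on the gene's strand. These starts lie inside the gene spans printed below with the values, which come from another annotation, so the window of PLAUR falls wholly and those of the other genes partly within the printed span. Capitals mark matches on either strand to TGANTCA, the AP-1 motif, and to GGGCGG, the GC box bound by SP1.
PLAUR: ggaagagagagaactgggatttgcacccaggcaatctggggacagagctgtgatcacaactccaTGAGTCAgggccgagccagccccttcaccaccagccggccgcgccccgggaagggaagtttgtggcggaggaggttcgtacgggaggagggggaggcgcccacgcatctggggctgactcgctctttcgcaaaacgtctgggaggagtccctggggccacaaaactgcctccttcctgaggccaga
MMP14: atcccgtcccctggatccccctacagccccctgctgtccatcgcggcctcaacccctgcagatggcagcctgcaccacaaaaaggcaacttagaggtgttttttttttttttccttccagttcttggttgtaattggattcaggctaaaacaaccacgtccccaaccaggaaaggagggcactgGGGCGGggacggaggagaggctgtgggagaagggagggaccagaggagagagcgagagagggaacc
MMP15: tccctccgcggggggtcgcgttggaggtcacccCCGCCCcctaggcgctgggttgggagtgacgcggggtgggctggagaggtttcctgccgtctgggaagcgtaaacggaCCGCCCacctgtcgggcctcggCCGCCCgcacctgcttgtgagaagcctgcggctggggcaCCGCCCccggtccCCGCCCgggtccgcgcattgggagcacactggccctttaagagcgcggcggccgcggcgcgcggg
TIMP1: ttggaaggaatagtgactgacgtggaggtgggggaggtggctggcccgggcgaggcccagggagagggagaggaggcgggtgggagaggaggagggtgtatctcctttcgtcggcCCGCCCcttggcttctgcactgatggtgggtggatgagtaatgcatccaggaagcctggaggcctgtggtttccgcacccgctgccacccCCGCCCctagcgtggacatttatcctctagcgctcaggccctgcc

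The PLAUR window (chr19:43670170-43670419, minus strand) held 1 AP-1 match, which begins 186 bases before the RefSeq start, and no GC box. That motif stood in 6.57% of all 35116 promoter windows of this length. The MMP15 window (chr16:58025504-58025753, plus strand) was the richest in GC, at 74.8% against a median of 58% over all windows, and held 5 GC boxes. The TIMP1 window (chrX:47582186-47582435, plus strand) held 2 GC boxes and the MMP14 window (chr14:22836335-22836584, plus strand) held 1, a motif present in 42.6% of all windows. No TATAAA was found in any of these windows, where 10.7% of all windows hold it. CCAAT, which 32.0% of all windows hold, had 1 match in MMP14, at -118 from the RefSeq start, and 1 in MMP15, at -49. These CCAAT matches are not in capitals, and PLAUR and TIMP1 had none. A match describes letters in the window and not a site in use.

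PLAUR, the urokinase receptor gene, was lower in every DDX17_KO library. PLAUR (ENSG00000011422, hg38 chromosome 19, 43646095 to 43670547, minus strand) had 5.78, 5.53 and 3.99 FPKM in DDX17_KO, against 8.68, 11.5 and 8.91 FPKM in control. Here and below, values run in the order of replicates 1, 2 and 3. The groups did not overlap, and the DDX17_KO mean was 52.5% of the control mean. On log2(FPKM + 1) this is a log2 fold change of -0.82 ± 0.20 (SE), and its 95% confidence limits were -1.29 and -0.34. The limma p adjusted over all 15620 genes tested was 0.283, so PLAUR did not pass the threshold of 0.05. After a correction for GC content and length the log2 fold change was -0.57 (limma adjusted p = 0.223). The levels rested on 527, 254 and 281 fragments in DDX17_KO and 919, 1377 and 1113 in control.

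The plasminogen activators themselves were at low levels, and of the pair only PLAT was high enough to test. PLAT (ENSG00000104368, chromosome 8, 42175233 to 42207724, minus strand) stood at 0.684, 1.14 and 1.13 FPKM in DDX17_KO, against 2.10, 2.55 and 2.36 FPKM in control. Every DDX17_KO library was below every control, at a mean of 42.2% of the control mean. PLAT had a log2 fold change of -0.76 ± 0.17 (SE), 95% confidence limits of -1.16 and -0.35, and 0.276 as its limma adjusted p. The added 1 shrinks a difference at these levels. With a pseudocount of 0.01 the log2 fold change was -1.27, with an adjusted p of 0.358. The recovered fragments of PLAT were 76, 64 and 97 in DDX17_KO and 271, 371 and 359 in control.

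PLAU, the urokinase gene (ENSG00000122861, chromosome 10, 73909177 to 73917497, plus strand), was near the limit of detection in both groups. It stood at 0, 0.121 and 0.131 FPKM in DDX17_KO and 0.0525, 0.0620 and 0.148 FPKM in control, which correspond to 0, 3 and 5 fragments and to 3, 4 and 10 fragments. The groups overlapped. Summed over libraries, the rate in DDX17_KO was 0.794 times that in control, with an exact 95% interval from 0.296 to 1.94 that covers counting error only. In the shallowest library 3 fragments of PLAU make 0.121 FPKM. The interval allows a lower or a higher rate in DDX17_KO, so a like level of urokinase RNA in both groups is not shown.

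SERPINE2, also called protease nexin 1, an inhibitor of plasminogen activators and thrombin, overlapped between the groups. SERPINE2 (ENSG00000135919, chromosome 2, 223975112 to 224039319, minus strand) stood at 10.2, 11.8 and 8.15 FPKM in DDX17_KO, against 8.03, 8.94 and 7.77 FPKM in control. The 2 highest libraries were DDX17_KO replicates 1 and 2, while DDX17_KO replicate 3 lay inside the control range. SERPINE2 had a log2 fold change of 0.25, 95% confidence limits of -0.20 and 0.69, and 0.522 as its limma adjusted p. Leaving out DDX17_KO replicate 2 gave 0.13, leaving out DDX17_KO replicate 3 gave 0.37, and a correction for GC content and length gave 0.0035. PLG, the plasminogen gene whose product the activators cut, was listed at 0 in all 6 libraries.

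MMP15, a membrane-anchored metalloproteinase gene, was lower in every DDX17_KO library and had the highest mean FPKM of the 23 MMP genes, though MMP24 stood above it in DDX17_KO replicate 2. MMP15 (ENSG00000102996, chromosome 16, 58025566 to 58046901, plus strand) stood at 4.50, 3.41 and 3.84 FPKM in DDX17_KO, against 6.82, 8.32 and 7.01 FPKM in control. The groups did not overlap, and the DDX17_KO mean was 53.1% of the control mean. MMP15 had a log2 fold change of -0.77 ± 0.18 (SE), 95% confidence limits of -1.18 and -0.36, and 0.273 as its limma adjusted p. The MMP15 transcript had the highest GC content of the 10, at 66.0%, and after the correction for GC content and length the value was -0.46 (limma adjusted p = 0.279). Its fragments numbered 220, 84 and 145 in DDX17_KO and 387, 532 and 469 in control.

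MMP14, the membrane metalloproteinase that cuts collagen and activates the MMP2 proenzyme, was close to silent. MMP14 (ENSG00000157227, chromosome 14, 22836557 to 22849027, plus strand) stood at 0.0469, 0.0310 and 0.0202 FPKM in DDX17_KO, against 0.135, 0.108 and 0.103 FPKM in control. These levels are 3, 1 and 1 fragments in DDX17_KO and 10, 9 and 9 fragments in control, so the groups did not overlap but rest on few fragments. Over summed libraries the rate in DDX17_KO was 0.301 times that in control, with an exact 95% counting interval from 0.0908 to 0.790. MMP14 lay below the filter of a mean of 0.5 FPKM. With no filter its log2 fold change on log2(FPKM + 1) was -0.11 with a limma adjusted p of 0.396. MMP2, whose product MMP14 activates, had 2, 2 and 0 fragments in DDX17_KO and 0, 0 and 1 in control.

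ADAM17, the sheddase also called TACE, overlapped between the groups. ADAM17 (ENSG00000151694, chromosome 2, 9488486 to 9555792, minus strand) stood at 10.0, 6.73 and 10.3 FPKM in DDX17_KO, against 8.72, 4.74 and 8.65 FPKM in control. The libraries numbered 2 were the lowest of both groups. ADAM17 had the lowest GC content of the 10, at 38.5%. No label pairs libraries by number. Set beside the control of the same number, DDX17_KO was the higher by 0.18, 0.43 and 0.22 on the log2 scale for replicates 1, 2 and 3. By the same comparison SERPINE2 was also higher in all 3, and PLAUR, PLAT, MMP14, MMP15 and TIMP1 were lower in all 3. Over all libraries ADAM17 had a log2 fold change of 0.28, 95% confidence limits of -0.35 and 0.91, and 0.605 as its limma adjusted p. The correction for GC content and length gave -0.025, and leaving out control replicate 2 gave 0.026.

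**Figure D1:**
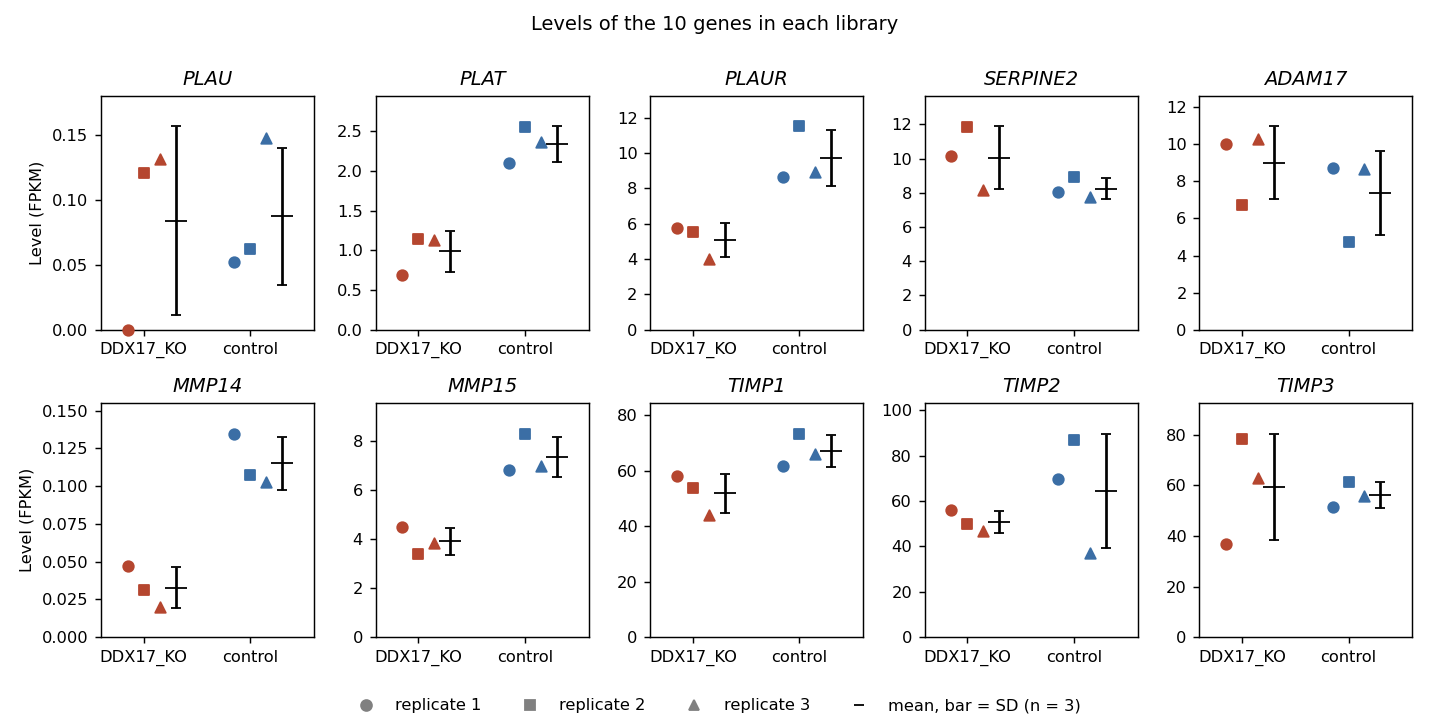
Level of each of the 10 genes in FPKM (vertical axes, from 0) in 3 DDX17_KO libraries (red, left) and 3 control libraries (blue, right), with marker shape for the replicate number and the mean with SD beside the points. PLAT, PLAUR, MMP14, MMP15 and TIMP1 have every DDX17_KO library below every control, while PLAU, SERPINE2, ADAM17, TIMP2 and TIMP3 overlap.

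The 3 TIMP genes had the highest FPKM of the 10 in both groups. TIMP1 (ENSG00000102265, chromosome X, 47582313 to 47586789, plus strand), a secreted inhibitor, stood at 57.9, 53.6 and 44.0 FPKM in DDX17_KO, against 61.8, 73.3 and 65.8 FPKM in control. The groups did not overlap, though DDX17_KO replicate 1 lay close to control replicate 1. TIMP1 had a log2 fold change of -0.37, 95% confidence limits of -0.81 and 0.075, and 0.397 as its limma adjusted p. After the correction for GC content and length it was -0.14.

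TIMP2, a secreted inhibitor that also takes part in the activation of the MMP2 proenzyme by MMP14, varied most among the controls. TIMP2 (ENSG00000035862, chromosome 17, 78852977 to 78925387, minus strand) stood at 56.3, 49.9 and 46.7 FPKM in DDX17_KO, against 69.6, 86.8 and 37.3 FPKM in control. Control replicate 3 was the lowest of all 6 libraries and control replicate 2 the highest. TIMP2 had a log2 fold change of -0.26, 95% confidence limits of -0.98 and 0.47, and 0.673 as its limma adjusted p. Leaving out control replicate 3 gave -0.60, leaving out control replicate 2 gave -0.0041, and leaving out control replicate 1 gave -0.16. The correction for GC content and length gave -0.041. Leaving out both libraries numbered 2 gave 0.0084, on the other side of 0.

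TIMP3, an inhibitor that binds to the matrix and also blocks ADAM17, varied most among the DDX17_KO libraries. TIMP3 (ENSG00000100234, chromosome 22, 32801701 to 32863043, plus strand) stood at 36.8, 78.5 and 62.8 FPKM in DDX17_KO, against 51.5, 61.4 and 55.7 FPKM in control. DDX17_KO held both the lowest and the highest library. TIMP3 had a log2 fold change of 0.016, 95% confidence limits of -0.65 and 0.68, and 0.98 as its limma adjusted p. The sign turned with libraries left out, at -0.22 without DDX17_KO replicate 2 and 0.32 without DDX17_KO replicate 1. The intervals of TIMP2 and TIMP3 allow differences of either sign, so a like level in both groups is not shown.

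Of the 10 genes, 8 passed the filter on low values and 0 of these passed the limma threshold, where 0.0384% of all tested genes did. At an unadjusted p under 0.05 there were 3, PLAUR, PLAT and MMP15, all lower in DDX17_KO, where 7.19% of all tested genes were lower and 6.31% higher by that rule. By voom on recovered fragments 0 of the 8 passed, where 0.0257% of its tested genes did. With array weights, which estimate a weight for each library, PLAUR, PLAT and MMP15 passed at limma adjusted p from 0.0131 to 0.0179, where 24.7% of all tested genes passed and 13% passed as lower in DDX17_KO. Among the 8 tested genes, 4 were lower in every DDX17_KO library, where 12.6% of all tested genes were, and 0 were higher in every one, where 8.09% were. The median log2 fold change of the 8 was -0.31, beside -0.026 over all tested genes and -0.091 over genes averaging at least 2 FPKM. The genes were named with earlier results of these data known, so these counts describe them and do not test them.

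**Figure D2:**
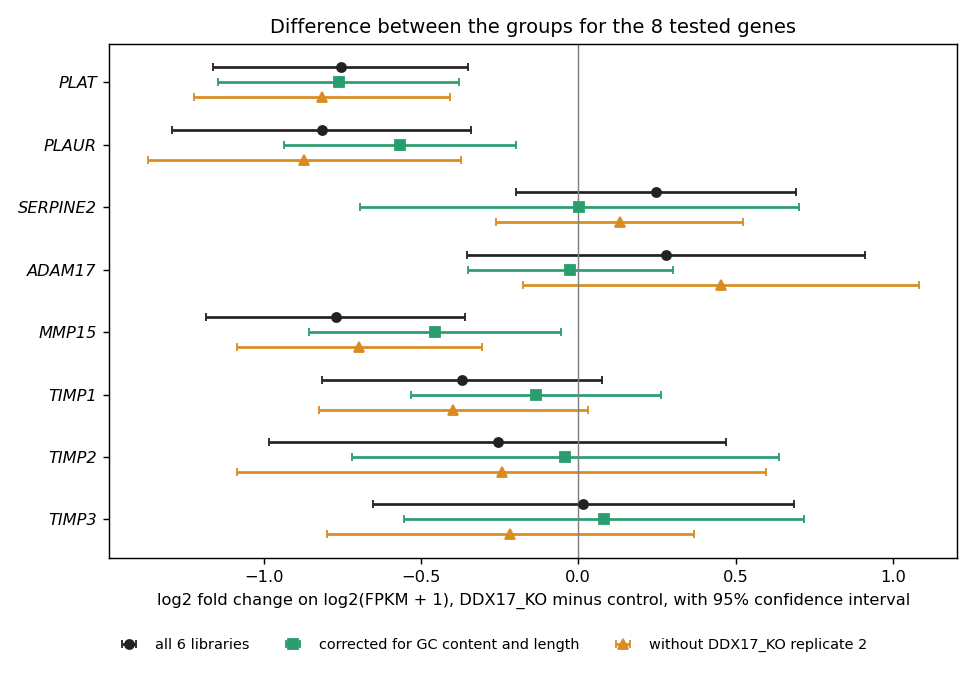
Log2 fold change on log2(FPKM + 1), DDX17_KO minus control, with its 95% confidence interval (horizontal axis) for the 8 tested genes, over all 6 libraries (black circles), after the correction for GC content and length (green squares) and without DDX17_KO replicate 2 (orange triangles). The values of PLAT, PLAUR and MMP15 lie below 0 in each, MMP15 at -0.77, -0.46 and -0.70, while those of TIMP3 and ADAM17 change sign. Over all 6 libraries the intervals of SERPINE2, ADAM17, TIMP1, TIMP2 and TIMP3 include 0.

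Levels were compared between genes only per unit of length, and the length used by the authors matters for that order. For genes with several transcripts, FPKM times the summed length of all distinct exons in GENCODE release 29 gave whole fragments in 92.4% to 93.1% of values up to 100 fragments, where 10% would fall within 0.05 of a whole number by chance. With the longest transcript it was 9.78% to 10.7%. Overlapping exons thus counted more than once in the divisor. For 9 of the 10 genes all 6 values were whole on that length, and ADAM17, whose locus differs in that annotation, was approximate. The divisor was 5.33 times the longest transcript for PLAUR, 4.36 times for ADAM17, 3.02 times for PLAT, 2.59 times for TIMP2, 2.06 times for TIMP1 and 1.00 times for TIMP3. Ratios of FPKM between libraries within a gene are untouched by it. A larger divisor lowers FPKM, however, so the added 1 shrinks a log2 fold change more and the filter is harder to pass. PLAT was at -0.76 on log2(FPKM + 1) and at -1.29 by voom on recovered fragments. For PLAUR these values were -0.82 and -0.94.

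On the deposited FPKM scale the control means ran from TIMP1 at 67.0, TIMP2 at 64.5 and TIMP3 at 56.2 to PLAUR at 9.71, SERPINE2 at 8.25, MMP15 at 7.38 and ADAM17 at 7.37. PLAT followed at 2.34, MMP14 at 0.115 and PLAU at 0.0876. Among the TIMPs, and among PLAUR, SERPINE2, MMP15 and ADAM17, neighbours in that order overlapped over control libraries. In DDX17_KO the order was TIMP3 at 59.4, TIMP1 at 51.8 and TIMP2 at 51.0, then SERPINE2 at 10.1, ADAM17 at 9.0, PLAUR at 5.10 and MMP15 at 3.92, then PLAT at 0.986, PLAU at 0.0841 and MMP14 at 0.0327. On that scale ADAM17 and SERPINE2 thus stood apart from PLAUR and MMP15 in DDX17_KO libraries, and overlapped with them in control libraries. With the longest transcript as the length, PLAUR did not stand apart from ADAM17 and SERPINE2 in DDX17_KO. PLAUR was then at 30.8, 29.5 and 21.3, SERPINE2 at 20.3, 23.7 and 16.3, and ADAM17 at about 43.6, 29.3 and 44.8. Per kilobase of the longest transcript the control means were 167 ± 65.0 for TIMP2, 138 ± 12 for TIMP1, 56.2 ± 5.00 for TIMP3 and 51.8 ± 8.46 for PLAUR (SD, n = 3 each). In control libraries PLAUR thus stood close to TIMP3 on that length and well below it on the deposited one, while in DDX17_KO it averaged 27.2 ± 5.17 against 59.4 ± 21.1 for TIMP3.

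**Figure D3:**
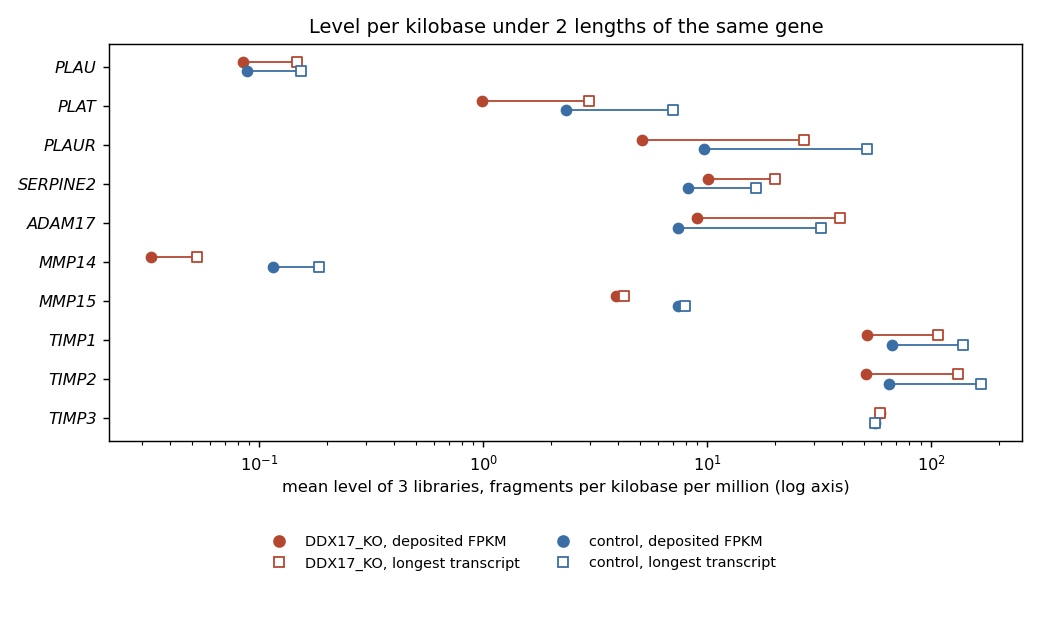
Mean level of 3 libraries per kilobase, scaled to library size (horizontal log axis) for each of the 10 genes, with the deposited FPKM as filled circles and the level per kilobase of the longest transcript as open squares, DDX17_KO in red above control in blue. PLAUR moves most, to 27.2 in DDX17_KO and 51.8 in control, while TIMP3 does not move.

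The rest of the pathway was read from 8 lists that together hold 135 genes, of which 125 are not among the 10 genes. Of these 125, 52 were high enough to test and 0 passed the limma threshold over all genes, with 37 below 0 and 15 above. In 13 every DDX17_KO library was below every control, where 12.6% of all tested genes were, and in 2 every one was above, where 8.09% were. The median log2 fold change of the 52 was -0.23, beside -0.026 over all tested genes and -0.091 over genes averaging at least 2 FPKM. Genes named below for groups that did not overlap were chosen after their values were seen, and none of them passed over all genes.

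In the plasminogen list, 8 genes other than the 10 were tested, 5 below 0 and 3 above, with 0 called. The most abundant were the plasminogen-binding surface proteins ENO1 and S100A10. ENO1, a glycolytic enzyme, averaged 502 ± 110 FPKM in DDX17_KO and 643 ± 99.7 FPKM in control, and S100A10 averaged 70.3 ± 11.6 FPKM in DDX17_KO and 75.3 ± 5.47 FPKM in control (SD, n = 3 each). PLGRKT, a membrane receptor for plasminogen, averaged 1.92 ± 0.42 FPKM in DDX17_KO and 3.86 ± 1.02 FPKM in control and did not overlap. LRP1, an endocytic receptor that clears protease and inhibitor complexes, averaged 4.17 ± 1.29 FPKM in DDX17_KO and 6.71 ± 0.90 FPKM in control, also without overlap. Among the serpins, SERPINI1, the neuroserpin gene and an inhibitor of PLAT's product, was higher in every DDX17_KO library, at 6.11, 4.47 and 5.25 FPKM, against 2.52, 1.57 and 2.58 FPKM in control. Its log2 fold change was 0.97 (limma adjusted p = 0.247). SERPINI1 passed without DDX17_KO replicate 2, at 1.07 (limma adjusted p = 0.0474), without both libraries numbered 2 and with array weights, and over all 19 alternatives the adjusted p lay between 0.0113 and 0.719. SERPINB8 was the other gene higher in every DDX17_KO library, at 3.69 ± 2.03 FPKM in DDX17_KO and 1.46 ± 0.056 FPKM in control.

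Of 23 matrix metalloproteinase genes, 21 averaged under 0.5 FPKM, with 6 at 0 in all libraries and the highest mean of those 21 at 0.148 FPKM. That gene was MMP17, at 0.0769, 0.131 and 0.0711 FPKM in DDX17_KO and 0.237, 0.269 and 0.104 FPKM in control. MMP24, a membrane-anchored member, was the other tested one beside MMP15. It stood at 0.960, 4.61 and 3.34 FPKM in DDX17_KO and 3.76, 4.99 and 3.69 FPKM in control, with the groups overlapping and DDX17_KO replicate 1 the lowest. The secreted enzymes MMP1, MMP2, MMP7 and MMP9 were each under the filter. Among the inhibitors, TIMP4 averaged 2.28 ± 0.72 FPKM in DDX17_KO and 4.28 ± 0.92 FPKM in control (SD, n = 3 each) without overlap, and its log2 fold change was -0.70 (limma adjusted p = 0.353). RECK, a membrane-anchored inhibitor, averaged 2.34 ± 0.72 FPKM in DDX17_KO and 2.05 ± 0.37 FPKM in control.

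Around ADAM17, 8 other sheddase and trafficking genes were tested, 5 below 0 and 3 above, and 12 substrate genes, 8 below 0 and 4 above, with 0 called in either list. ADAM9, a related sheddase, averaged 15.2 ± 5.64 FPKM in DDX17_KO and 9.23 ± 3.13 FPKM in control, and like ADAM17 was lowest in the libraries numbered 2 of both groups. ADAM15 averaged 8.29 ± 2.58 FPKM in DDX17_KO and 10.8 ± 1.73 FPKM in control. RHBDF1, an inactive rhomboid that helps ADAM17 mature, averaged 0.735 ± 0.329 FPKM in DDX17_KO and 1.47 ± 0.22 FPKM in control without overlap. The log2 fold change of RHBDF1 was -0.52 (limma adjusted p = 0.368), and -0.18 after the correction for GC content and length (limma adjusted p = 0.729). Of the shed proteins, L1CAM, an adhesion molecule, averaged 50.4 ± 3.85 FPKM in DDX17_KO and 83.4 ± 8.86 FPKM in control, a log2 fold change of -0.71 (limma adjusted p = 0.289) that was -0.47 after the correction for GC content and length. AREG, an EGF receptor ligand, SDC1, a heparan sulfate proteoglycan, and IL6R, the interleukin 6 receptor, also lay below every control in each DDX17_KO library. SDC1 differed most of these, at 3.10 ± 1.39 FPKM in DDX17_KO and 7.88 ± 2.05 FPKM in control. TNFRSF1A averaged 10.5 ± 3.42 FPKM in DDX17_KO and 14.8 ± 2.28 FPKM in control and overlapped.

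Among membrane serine proteases, convertases and partners of MMP14, 7 genes were tested, 6 below 0 and 1 above, with 0 called. FURIN, the convertase that activates the proenzymes of MMP14, MMP15 and ADAM17, stood at 16.5, 22.8 and 16.8 FPKM in DDX17_KO, against 28.6, 39.5 and 34 FPKM in control. The groups did not overlap, and the log2 fold change of FURIN was -0.83 (limma adjusted p = 0.293). Leaving out DDX17_KO replicate 2 gave -0.98 (limma adjusted p = 0.0457), the correction for GC content and length gave -0.54 (limma adjusted p = 0.214), and over all 19 alternatives the adjusted p lay between 0.0112 and 0.790. ST14, the matriptase gene, averaged 0.418 ± 0.196 FPKM in DDX17_KO and 1.19 ± 0.22 FPKM in control without overlap. BSG, which encodes basigin, averaged 39.9 ± 6.03 FPKM in DDX17_KO and 50.7 ± 7.49 FPKM in control. In the ADAMTS list 3 of 19 genes were tested, 2 below 0 and 1 above, with 0 called. ADAMTS1 averaged 3.24 ± 0.35 FPKM in DDX17_KO and 4.29 ± 0.39 FPKM in control without overlap. ADAMTS15 averaged 2.68 ± 1.70 FPKM in DDX17_KO and 3.86 ± 1.03 FPKM in control. ADAMTS5, the gene above 0, averaged 2.69 ± 1.45 FPKM in DDX17_KO and 2.44 ± 0.41 FPKM in control and overlapped.

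In the list of cysteine and aspartic matrix proteases and their inhibitors, which also holds HPSE, 10 genes were tested. Of these, 9 were below 0 and 1 above, with 0 called. The lysosomal proteases CTSZ and CTSL were the most abundant. CTSZ averaged 77.2 ± 31.9 FPKM in DDX17_KO and 90.6 ± 12.8 FPKM in control, and CTSL averaged 22.2 ± 4.24 FPKM in DDX17_KO and 21.2 ± 3.23 FPKM in control (SD, n = 3 each). CTSB, cathepsin B, averaged 4.31 ± 0.91 FPKM in DDX17_KO and 7.25 ± 1.6 FPKM in control without overlap, as did the cathepsin inhibitor CST3, at 6.35 ± 1.55 FPKM in DDX17_KO and 9.51 ± 1.82 FPKM in control.

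**Figure D4:**
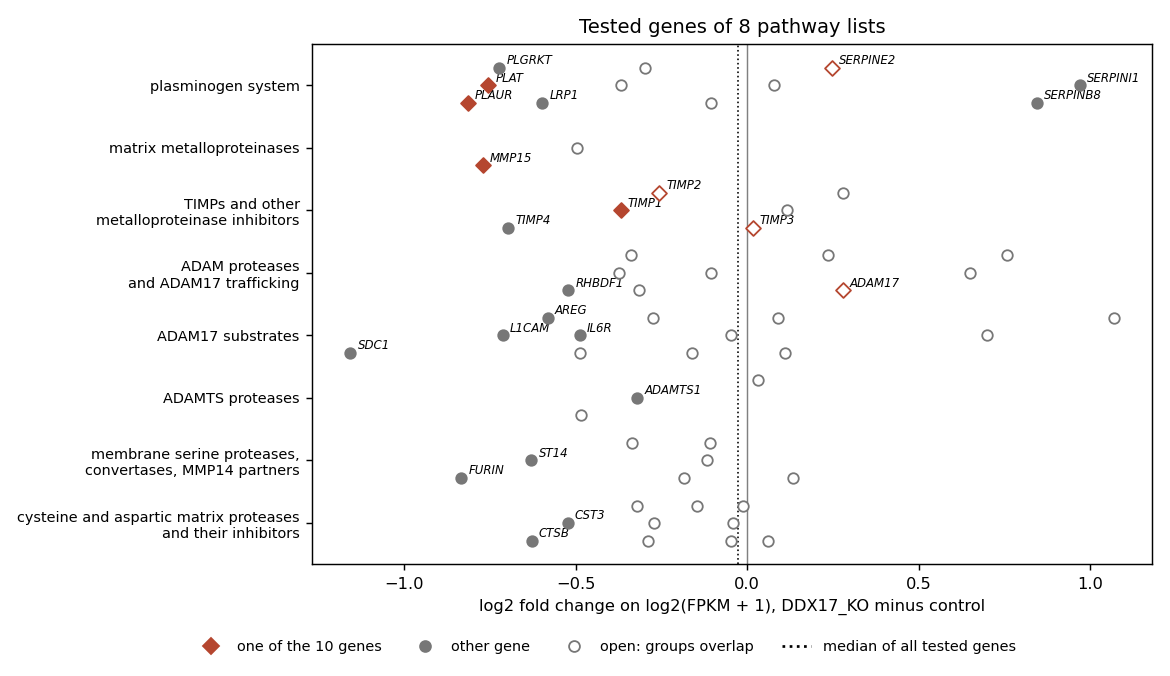
Log2 fold change on log2(FPKM + 1), DDX17_KO minus control (horizontal axis), of each tested gene in 8 pathway lists (rows), with the 10 genes as red diamonds, other genes as grey circles, filled where the groups do not overlap, and a dotted line at the median of all tested genes, -0.026. SDC1 lies farthest below 0, at -1.16, and no gene shown passed the limma threshold.

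On log2(FPKM + 1) PLAUR had the log2 fold change of largest size among the 8 tested genes, though not in every alternative, PLAT having the larger one with smaller pseudocounts, with the correction for GC content and length, and by voom, among others. The 3 protein-coding genes named here followed the pattern of PLAUR over the 6 libraries most closely. Likeness was the root mean square difference of log2(FPKM + 1) after each gene was centred on its own mean. It was 0.049 for NAPRT, an enzyme gene of NAD synthesis, 0.067 for ARPIN, an inhibitor of the Arp2/3 complex, and 0.081 for LY6E, a lipid-anchored surface protein. NAPRT averaged 4.12 ± 0.82 FPKM in DDX17_KO and 7.88 ± 1.52 FPKM in control, ARPIN 4.63 ± 0.87 FPKM in DDX17_KO and 8.22 ± 0.95 FPKM in control, and LY6E 6.98 ± 1.57 FPKM in DDX17_KO and 12.9 ± 1.85 FPKM in control (SD, n = 3 each). By limma 0 of the 3 passed, with adjusted p of 0.305 for ARPIN and 0.302 for LY6E. The 3 genes were chosen for likeness to PLAUR over the same libraries, group difference included. Their lower DDX17_KO means and their adjusted p thus follow from that choice.

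Several of the 10 loci overlap other genes, and no source used here says that fragments were assigned by strand. TIMP1 lies within SYN1 and TIMP3 within SYN3 on the opposite strand, and these genes averaged 0.0187 and 0.0225 FPKM over the 6 libraries. ADAM17 overlaps IAH1 on the opposite strand, at 2.60 FPKM. TIMP2 holds CEP295NL on its own strand, at 0.702 FPKM, and PLAUR holds RN7SL368P on its own strand, at 2.34 FPKM. C10orf55, opposite PLAU, was at 0. How fragments were divided between these genes is not given in the sources used here.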

How the data were processed

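Total RNA of 6 MHCC97H libraries, 3 of DDX17_KO and 3 of control, was sequenced, and titles gave the groups. The authors deposited gene-level FPKM for every library in 1 table. Per the submitters' processing notes, the build was hg38 and the tools were StringTie, HISAT2, edgeR and CASAVA 1.8, without their roles. For annotation release, strand setting and filters, the value is not given in the sources used here. Low values fell on whole multiples of a step per library, in 99.4% to 99.7% of values up to 20 fragments for genes with 1 transcript (tolerance 0.05), which gave depth and fragments per gene.

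Tests used limma 3.58.1 in R 4.3.3 with an intensity trend on log2(FPKM + 1), over the 15620 genes averaging 0.5 FPKM or more, Benjamini-Hochberg adjusted, two-sided, at a threshold of 0.05. The script was tested on simulated data. Because of the pseudocount of 1, folds of low genes are understated. The genes and lists were chosen with earlier results of these data known. Besides the 10 genes, DDX17, PLG and MMP2, the rule named up to 3 genes per list and direction past the threshold or, with none, the 2 most abundant, and the 3 genes most like the one with the largest fold change. Alternatives were a replicate block, a correction for GC content and length by splines with 4 degrees of freedom, both together, pseudocounts of 0.1 and 0.01, 2 scalings, 2 filters, no trend, array weights and libraries left out. A further gene named by the rule is not reported here. Voom on recovered fragments was added after seeing the data.

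Whether replicate numbers pair libraries was checked from deviations from group means, whose correlation across genes was 0.30, 0.55 and 0.21 for replicates 1, 2 and 3. DDX17_KO replicate 3 also correlated with control replicate 1, at 0.33, and DDX17_KO replicate 1 with control replicate 3, at 0.19. Deviations within a group cancel out, so where the libraries numbered 2 stand apart the others tend to correlate however they are matched. The check thus cannot decide whether replicates 1 and 3 are paired. Any pairing is thus read from the values, since no label states one. Python 3.11.15 with pandas 2.3.3 and scipy 1.17.1 read the values. Intervals from fragments cover counting error only.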

Additional observations from a re-analysis of the deposited data

How the results depend on the processing

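With all libraries, 6 genes passed over the whole table, all lower in DDX17_KO. The count was 4 with the replicate number as a block, 11 with the correction for GC content and length, 3 with no filter on low values, 3861 with array weights and 1376 without both libraries numbered 2. With 1 library left out it ran from 3 to 572, the highest without DDX17_KO replicate 2, the shallowest library and the lowest in DDX17. Of the 10 genes, 0 passed in 18 of 19 other settings, the replicate block included, and 3 with array weights. The cause was not tested. DDX17 had a log2 fold change of -1.11 with array weights and -1.08 without both libraries numbered 2, and passed in both. With 1 library left out it ran from -1.76 to -1.04, and it passed without DDX17_KO replicate 2. Values of some genes that did not pass changed sign. TIMP2 was 0.27 with array weights and 0.0084 without both libraries numbered 2. TIMP3 was -0.22 with array weights, -0.15 without both libraries numbered 2, and from -0.22 to 0.32 with 1 library left out. ADAM17 was -0.025 with the correction for GC content and length, with or without the block. S100A10 was 0.12 under that correction, with or without the block, and from -0.22 to 0.019 with 1 library left out. CTSL ran from -0.082 to 0.18 with 1 library left out. PLAUR, PLAT, MMP15 and TIMP1 kept their sign in every setting in which they were tested, PLAT having been under the filter of a mean of 2 FPKM. Depth limits PLAU and MMP14, at 0 to 10 fragments per library.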
